A study of Ovis aries with 8 samples.

Results

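The transcripts of POMC, CARTPT and the melanocortin receptors MC3R and MC4R were followed in the mediobasal hypothalamus of food-restricted and well-fed ewes. The 4 genes were taken by symbol from a table of 33609 genes, where each has a single row, and all 4 had enough reads to be among the 18193 genes tested. All animals were adult Ile-de-France ewes, either food-restricted or fed without limit, with 30 ewes per group in each of 2 years. RNA of 15 ewes drawn at random was mixed in equal amounts for each library, giving 4 food-restricted pools and 4 well-fed pools, so n counts pools and the spread is that between mixes of ewes. Neither the years mixed in a pool nor the length and depth of the restriction are stated in the labels. Levels are given as CPM, the reads of a gene after each library is scaled to a common total, adjusted between libraries by the trimmed mean of M values (TMM) and not divided by gene length. They are therefore compared between pools and never between genes.

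POMC encodes a precursor that neurons of the arcuate nucleus cut into alpha-melanocyte-stimulating hormone, beta-endorphin and other peptides. The melanocortin peptide activates MC3R and MC4R and lowers food intake, while agouti-related peptide (AGRP), made by a neighbouring arcuate population, blocks the same receptors. CARTPT encodes the precursor of the CART peptides, which in rodents share many of the arcuate POMC neurons and also occur in lateral hypothalamic neurons that make melanin-concentrating hormone.

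Of the 4 genes, 0 passed the edgeR quasi-likelihood test at an adjusted p of 0.05, against a background of 0.00550% of tested genes (1 of 18193). CARTPT was the 1 member with an unadjusted p under 0.05. DESeq2 and limma voom also called 0 of the 4. The groups overlapped in all 4 members, where 1.60% of tested genes had pools that did not overlap.

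POMC (gene ID 443212) was spread widely among pools of the same feeding group. It was at 233, 267, 56.7 and 118 CPM in food-restricted pools 1 to 4, against 50.5, 73.3, 244 and 359 CPM in well-fed pools 1 to 4. Each group thus held a pair of high pools and a pair of low pools, and the groups overlapped over most of their range. The means were 169 ± 98.1 CPM in food-restricted pools, against 182 ± 146 CPM in well-fed ones (SD, n = 4 each). The log2 fold change was -0.11 (SE 0.61), with a 95% interval between -1.46 and 1.25 (edgeR adjusted p = 1). In linear terms that interval runs between 0.363-fold and 2.37-fold, so a change within these bounds cannot be told from none with 4 pools a group. The bounds are not a detection limit, since a call also had to pass adjustment over all genes. The direction was not stable either: leaving out food-restricted pool 3 gave 0.18, food-restricted pool 4 gave 0.03, well-fed pool 3 gave 0.07 and well-fed pool 4 gave 0.46, while leaving out well-fed pool 1 gave the most negative value, -0.42. In bulk tissue, fewer cells of a type and less RNA per cell cannot be told apart.

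The highest POMC pool was 4.71 times the lowest in the food-restricted group and 7.11 times the lowest in the well-fed group. Counting error amounts to 1.18% in food-restricted and 1.16% in well-fed pools, against coefficients of variation of 58.2% in food-restricted and 80.6% in well-fed pools. The standard deviation of POMC within groups was 1.20 on the log2 CPM scale. Among 2408 genes whose mean lay within 2-fold of that of POMC, 8 (0.332%) had a larger one. The corresponding values were 0.50 for CARTPT, with 5.63% of 3479 genes of like level above it, 0.50 for MC3R (35.6% of 2525 genes above it) and 0.33 for MC4R (51.1% of 2871 genes above it). POMC and CARTPT thus varied more between pools than most genes of their level, and the receptors lay in the middle.

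**Figure D1:**
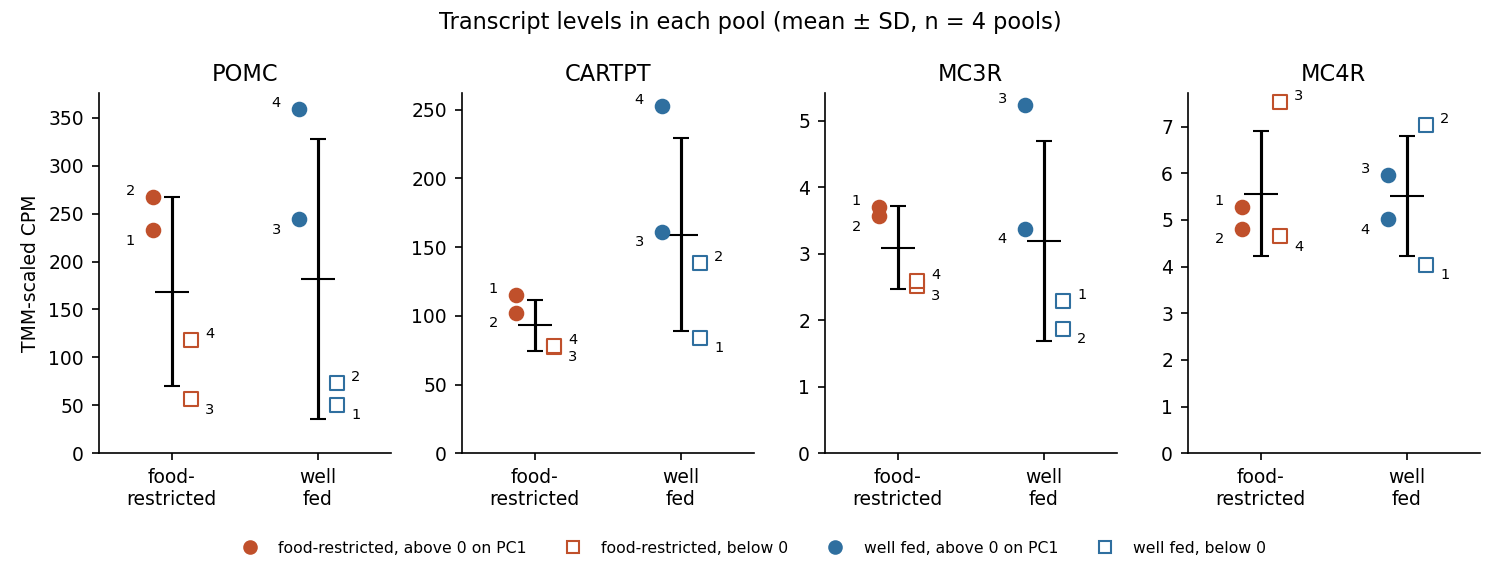
TMM-scaled CPM of POMC, CARTPT, MC3R and MC4R in each pool, with the pool number beside each point and the mean ± SD of 4 pools a group. Filled circles are the 4 pools with positive scores on the first principal component (PC1) and open squares the 4 with negative ones: POMC reached 233 to 359 CPM in the circles and 50.5 to 118 CPM in the squares.

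The high and low POMC pools were those that the rest of the transcriptome also set apart. The first principal component of log2 CPM, computed over 18080 tested genes without the members or any gene of the lists used here, held 34.5% of the variance. Food-restricted pools 1 and 2 and well-fed pools 3 and 4 lay above 0, and food-restricted pools 3 and 4 and well-fed pools 1 and 2 lay below 0. Scores were 29.0 to 45.9 above 0 and -64.2 to -32.4 below 0, except for food-restricted pool 4, which lay nearer 0 at -9.15. POMC averaged 276 CPM in the 4 pools above 0 and 74.7 CPM in the 4 below 0, a ratio of 3.69, and 205 of 18193 tested genes (1.13%) had a larger one. MC3R was likewise higher in all pools above 0 than in any below 0 (ratio 1.71), a pattern met in 14.2% of tested genes. CARTPT had a ratio of 1.67 with overlap, and MC4R a ratio of 0.905. Within the pools above 0, POMC was at 250 CPM in the food-restricted pair and 301 CPM in the well-fed pair. Within the pools below 0, it was at 87.5 CPM in the food-restricted pair and 61.9 CPM in the well-fed pair. The difference between the pair means thus had opposite signs on the 2 sides, while the pools of the feeding groups overlapped on each side. With the side as a block, the POMC log2 fold change was 0.11 (SE 0.22, 95% interval between -0.35 and 0.57, edgeR adjusted p = 0.992). The block narrowed the interval but gave no call. What the component stands for is not given by the labels.

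CARTPT (gene ID 101109912) was the member with the lowest p. It was at 115, 102, 77.5 and 78.1 CPM in food-restricted pools 1 to 4, against 84.1, 138, 161 and 253 CPM in well-fed pools 1 to 4. Food-restricted pools 3 and 4 were lower than every well-fed pool, and food-restricted pools 1 and 2 lay between well-fed pools 1 and 2. The means were 93.2 ± 18.6 CPM in food-restricted pools, against 159 ± 70.4 CPM in well-fed ones (SD, n = 4 each). The log2 fold change was -0.77 (SE 0.28, 95% interval between -1.39 and -0.15), or 0.586-fold, with an unadjusted p of 0.0197 and an edgeR adjusted p of 1. The log2 CPM values gave p = 0.114 in a two-sided exact permutation test, where 4 pools against 4 cannot go below 0.0286. Without well-fed pool 4, the highest of the 8, the log2 fold change was -0.46 (SE 0.23).

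On each side of the first principal component, both food-restricted pools had less CARTPT than both well-fed pools, which 2.76% of tested genes also showed (5.28% in either direction). In the pools above 0 the food-restricted pair averaged 109 CPM and the well-fed pair 207 CPM, a ratio of 0.525. In the pools below 0 the food-restricted pair averaged 77.8 CPM and the well-fed pair 111 CPM, a ratio of 0.699. With the side as a block, the log2 fold change was -0.72 (SE 0.16, 95% interval between -1.07 and -0.37) with an unadjusted p of 0.000505. CARTPT still did not pass over all genes in that fit (edgeR adjusted p = 0.483), in which 0.0330% of genes (6 of 18193) were called.

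POMC and CARTPT were high in the same pools within each feeding group, those above 0 on the first principal component. MC3R, NPY, AVP and OXT were also higher in those pools without overlap in each group. MC4R, TBX19, PMCH, CGA, TSHB and TTR were not, and AGRP was so in well-fed pools only. A stricter pattern, higher in all pools above 0 than in any below 0, was met in 14.2% of tested genes. In food-restricted ewes, pools 1 and 2 exceeded pools 3 and 4 by 2.86 times for POMC and 1.40 times for CARTPT. In well-fed ewes, pools 3 and 4 exceeded pools 1 and 2 by 4.87 times for POMC and 1.86 times for CARTPT. POMC fell into separate clusters of 4 pools (233 to 359 and 50.5 to 118 CPM), each under 6 pools, so no correlation over the 8 pools was tested. Within a feeding group and side, the pool with more POMC also had more CARTPT in 3 of 4 pairs, a count that was not tested. Well-fed pool 4 exceeded well-fed pool 3 in both genes, and well-fed pool 2 exceeded well-fed pool 1 in both. Food-restricted pool 4 had more POMC than pool 3 with nearly the same CARTPT (78.1 and 77.5 CPM), and food-restricted pool 2 had more POMC than pool 1 and less CARTPT (102 and 115 CPM).

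**Figure D2:**
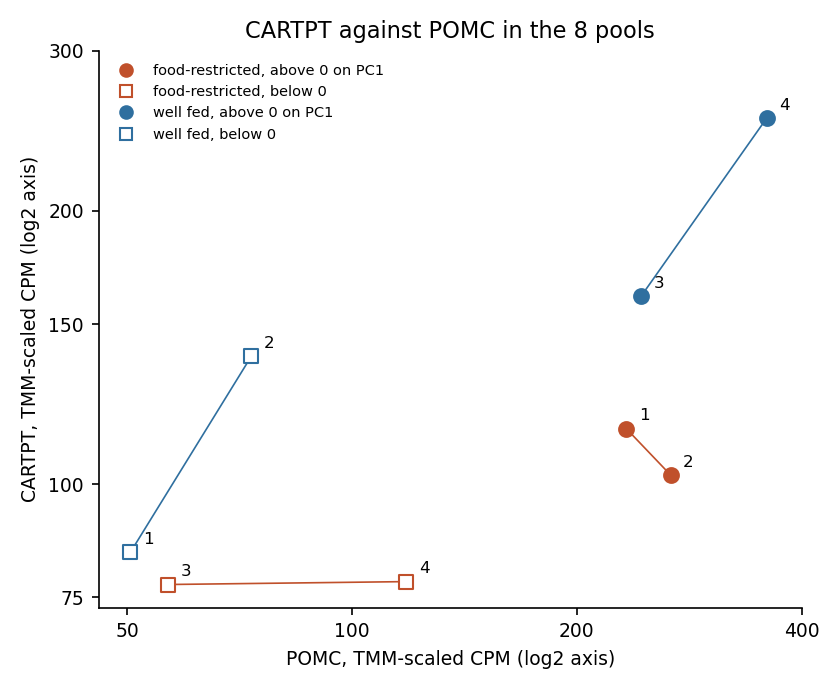
CARTPT against POMC in the 8 pools, both in TMM-scaled CPM on log2 axes, with pool numbers beside the points and a line joining the 2 pools of the same feeding group and side of the first principal component. The food-restricted points stay between 77.5 and 115 CPM of CARTPT over their POMC range of 56.7 to 267 CPM. The well-fed points run between 84.1 and 253 CPM of CARTPT over a POMC range of 50.5 to 359 CPM.

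The ratio of CARTPT to POMC reads within a pool does not depend on how libraries are scaled. Since gene length was not corrected, its size has meaning only between pools. It was 0.494, 0.383, 1.37 and 0.660 in food-restricted pools 1 to 4, against 1.67, 1.89, 0.661 and 0.704 in well-fed pools 1 to 4. On each side, the ratio of both food-restricted pools was lower than that of both well-fed ones, while across sides the groups overlapped. Among single genes, 2.76% of those tested were lower on both sides in that way, and no such share is given for ratios. The mean log2 ratio was -0.64 ± 0.79 in food-restricted pools and 0.14 ± 0.80 in well-fed pools (SD, n = 4 each). The difference of -0.77 did not pass an exact two-sided permutation test (p = 0.171, adjusted p = 0.229 over the 4 ratios computed).

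MC3R (gene ID 101119579), a receptor for the melanocortin peptides that is found on arcuate and other hypothalamic neurons, had 72 to 251 reads a pool. It was at 3.70, 3.57, 2.52 and 2.59 CPM in food-restricted pools 1 to 4, against 2.28, 1.87, 5.23 and 3.38 CPM in well-fed pools 1 to 4. The well-fed pools enclosed the food-restricted ones at both ends. The means were 3.09 ± 0.627 CPM in food-restricted pools, against 3.19 ± 1.50 CPM in well-fed ones (SD, n = 4 each). The log2 fold change was -0.05 (SE 0.34), with a 95% interval between -0.79 and 0.69 (edgeR adjusted p = 1). Its sign changed without well-fed pool 3 (0.32), the pool with the highest level, and without food-restricted pool 3 (0.04) or food-restricted pool 4 (0.04).

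MC4R (gene ID 100147707), the receptor through which melanocortins reduce feeding and whose loss causes obesity in mice and people, had 178 to 323 reads a pool. It was at 5.27, 4.81, 7.54 and 4.65 CPM in food-restricted pools 1 to 4, against 4.04, 7.04, 5.96 and 5.01 CPM in well-fed pools 1 to 4. Food-restricted pool 3 was the highest of the 8 and well-fed pool 1 the lowest. The means were 5.57 ± 1.34 CPM in food-restricted pools, against 5.52 ± 1.29 CPM in well-fed ones (SD, n = 4 each). The log2 fold change was 0.01 (SE 0.24), with a 95% interval between 0.704-fold and 1.45-fold (edgeR adjusted p = 1). Counting error came to 6.51% in food-restricted and 6.60% in well-fed pools, against coefficients of variation of 24.1% in food-restricted and 23.3% in well-fed pools. The ratio of MC4R to MC3R reads ran between 1.35 and 2.99 in food-restricted pools and between 1.14 and 3.76 in well-fed pools. The mean log2 ratio was 0.84 ± 0.52 in food-restricted and 0.87 ± 0.74 in well-fed pools (SD, n = 4 each; exact two-sided permutation p = 0.886, adjusted p = 0.886 over the 4 ratios).

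AGRP (gene ID 443269), the antagonist of both receptors, was the 1 gene called over all genes. It was at 193, 137, 146 and 144 CPM in food-restricted pools 1 to 4, against 38.2, 47.1, 60.7 and 56.9 CPM in well-fed pools 1 to 4, with a log2 fold change of 1.61 (SE 0.17, edgeR adjusted p = 0.0296). That call was lost when any 1 pool was left out (edgeR adjusted p between 0.0706 and 0.215), while the log2 fold change stayed between 1.49 and 1.73. DESeq2 (adjusted p = 6.54e-14) and edgeR with the side as a block (adjusted p = 2.57e-05) also called AGRP. The ratio of AGRP to POMC reads overlapped between the groups. It was 0.831, 0.513, 2.57 and 1.22 in food-restricted pools 1 to 4, against 0.756, 0.642, 0.249 and 0.158 in well-fed pools 1 to 4. Food-restricted pool 2 lay below well-fed pools 1 and 2, and the other 3 food-restricted pools exceeded every well-fed pool. The mean log2 ratio was 0.10 ± 0.98 in food-restricted and -1.43 ± 1.08 in well-fed pools (SD, n = 4 each). The difference of 1.53 did not pass (exact two-sided permutation p = 0.114, adjusted p = 0.229 over the 4 ratios).

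The ratio of AGRP to CARTPT reads did not overlap between the groups. It was 1.68, 1.34, 1.88 and 1.84 in food-restricted pools 1 to 4, against 0.454, 0.340, 0.376 and 0.225 in well-fed pools 1 to 4. The mean log2 ratio was 0.74 ± 0.22 in food-restricted and -1.56 ± 0.43 in well-fed pools (SD, n = 4 each). It was 4.94-fold higher in food-restricted pools, in 4 of 4 of them, and reached the smallest p that the design allows (exact two-sided permutation p = 0.0286), with an adjusted p of 0.114 over the 4 ratios. A single ratio at that floor could not have passed the adjustment. This ratio was formed with the result for AGRP known. AGRP alone was already 3.06-fold higher without overlap (exact two-sided permutation p = 0.0286). The lack of overlap in the ratio is thus no separate result for CARTPT.

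**Figure D3:**
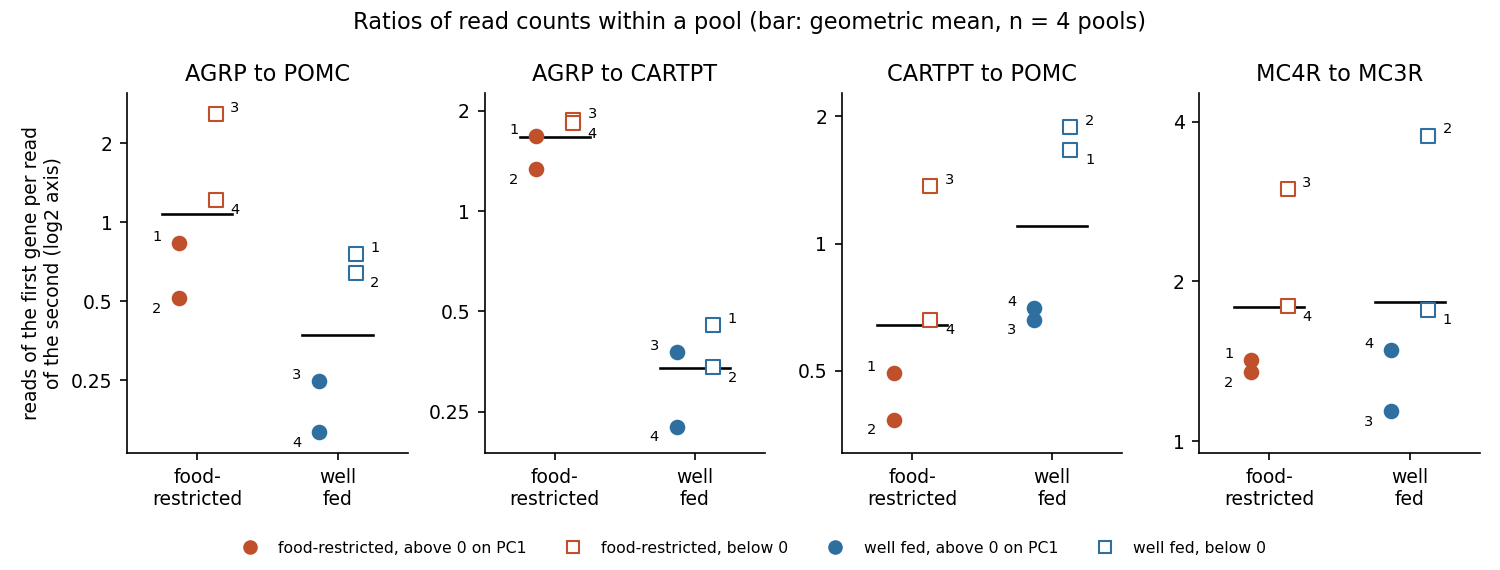
Reads of the first gene per read of the second in each pool, on log2 axes, for AGRP to POMC, AGRP to CARTPT, CARTPT to POMC and MC4R to MC3R, with the geometric mean of 4 pools a group as a bar. AGRP to CARTPT lies between 1.34 and 1.88 in food-restricted pools and between 0.225 and 0.454 in well-fed pools, and the other ratios overlap.

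The other genes of the melanocortin pathway were read in 6 lists of 57 genes, of which 53 were tested. AGRP rose and 52 did not pass over all genes (edgeR), with 3 of the 53 at an unadjusted p under 0.05, against 309 of 18193 over all tested genes. Of the 53 log2 fold changes 23 were above 0 and 30 below 0, with a median of -0.01, against 0.01 over all tested genes.

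Among genes that cut and mature the POMC precursor, 0 of 6 passed, and 3 were higher and 3 lower in the fit (median -0.01). PCSK1, the prohormone convertase that makes the first cuts, was at 285, 287, 344 and 286 CPM in food-restricted pools 1 to 4, against 395, 359, 373 and 330 CPM in well-fed pools 1 to 4. Food-restricted pool 3 lay above well-fed pool 4, and the other 3 were lower than every well-fed pool. Its log2 fold change was -0.28 (SE 0.10, edgeR unadjusted p = 0.0206, adjusted p = 1). CPE, the carboxypeptidase that trims the cut ends, was at 0.10 (SE 0.14), and SCG5, the chaperone 7B2 of the second convertase, was at -0.03 (SE 0.12). PCSK2, that second convertase, was not analysed here.

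Among the other receptors, accessory proteins and antagonists, AGRP rose and 8 of 9 tested did not pass (median 0.03). MC1R, the melanocortin receptor best known from pigment cells, was at 1.85 ± 0.595 CPM in food-restricted pools, against 1.12 ± 0.363 CPM in well-fed ones (SD, n = 4 each), and its log2 fold change was 0.71 (SE 0.38). MRAP2, the accessory protein that modulates MC4R signalling, was at -0.13 (SE 0.14). MC2R, the receptor for corticotropin in the adrenal gland, had 2 reads in well-fed pool 1 and 0 elsewhere. MRAP, its accessory protein, had 0 in all 8 pools, where a count of 0 allows up to 3 counts by counting error alone, or 0.0625 to 0.0845 CPM depending on the pool.

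Of 11 genes downstream of the receptors 0 passed, with 6 above and 5 below 0 (median 0.05). The 3 with the smallest p were ADCY3, an adenylyl cyclase (-0.25, SE 0.15), ARRB2, an arrestin that turns receptors off (-0.18, SE 0.11), and KCNJ13, a potassium channel coupled to MC4R in mice that is also a choroid plexus gene (1.18, SE 0.74, under 1 CPM on average in both groups). The opioid receptors, which bind beta-endorphin and related peptides, were 3 of 3 below 0, and 0 passed. OPRM1 was at -0.14 (SE 0.38), OPRD1 at -0.07 (SE 0.67) and OPRK1 at -0.34 (SE 0.57).

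Transcription factors that specify or regulate arcuate POMC neurons gave 0 calls in 10 tested genes, with 5 above and 5 below 0 (median 0.04). STAT3, which carries the leptin signal to the POMC gene, was at -0.25 (SE 0.16), NKX2-1 at 0.16 (SE 0.13) and TBX3 at 0.13 (SE 0.11). Receptors and signalling genes through which hormones and transmitters reach these neurons gave 0 calls in 14, with 4 above and 10 below 0 (median -0.02). GLP1R, the receptor for glucagon-like peptide 1, was at 13.7, 20.3, 20.6 and 17.2 CPM in food-restricted pools 1 to 4, against 22.7, 23.7, 20.8 and 23.8 CPM in well-fed pools 1 to 4. Every food-restricted pool was lower than any well-fed pool, by a small margin at the nearest. Such a lack of overlap, in either direction, was met in 1.60% of tested genes, and ARRB2 above also showed it. Its log2 fold change was -0.34 (SE 0.15, edgeR unadjusted p = 0.0478, adjusted p = 1). PTPN1, a phosphatase that dampens leptin and insulin signals, was at -0.14 (SE 0.14), and NPY1R, a receptor for neuropeptide Y, at -0.13 (SE 0.17).

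**Figure D4:**
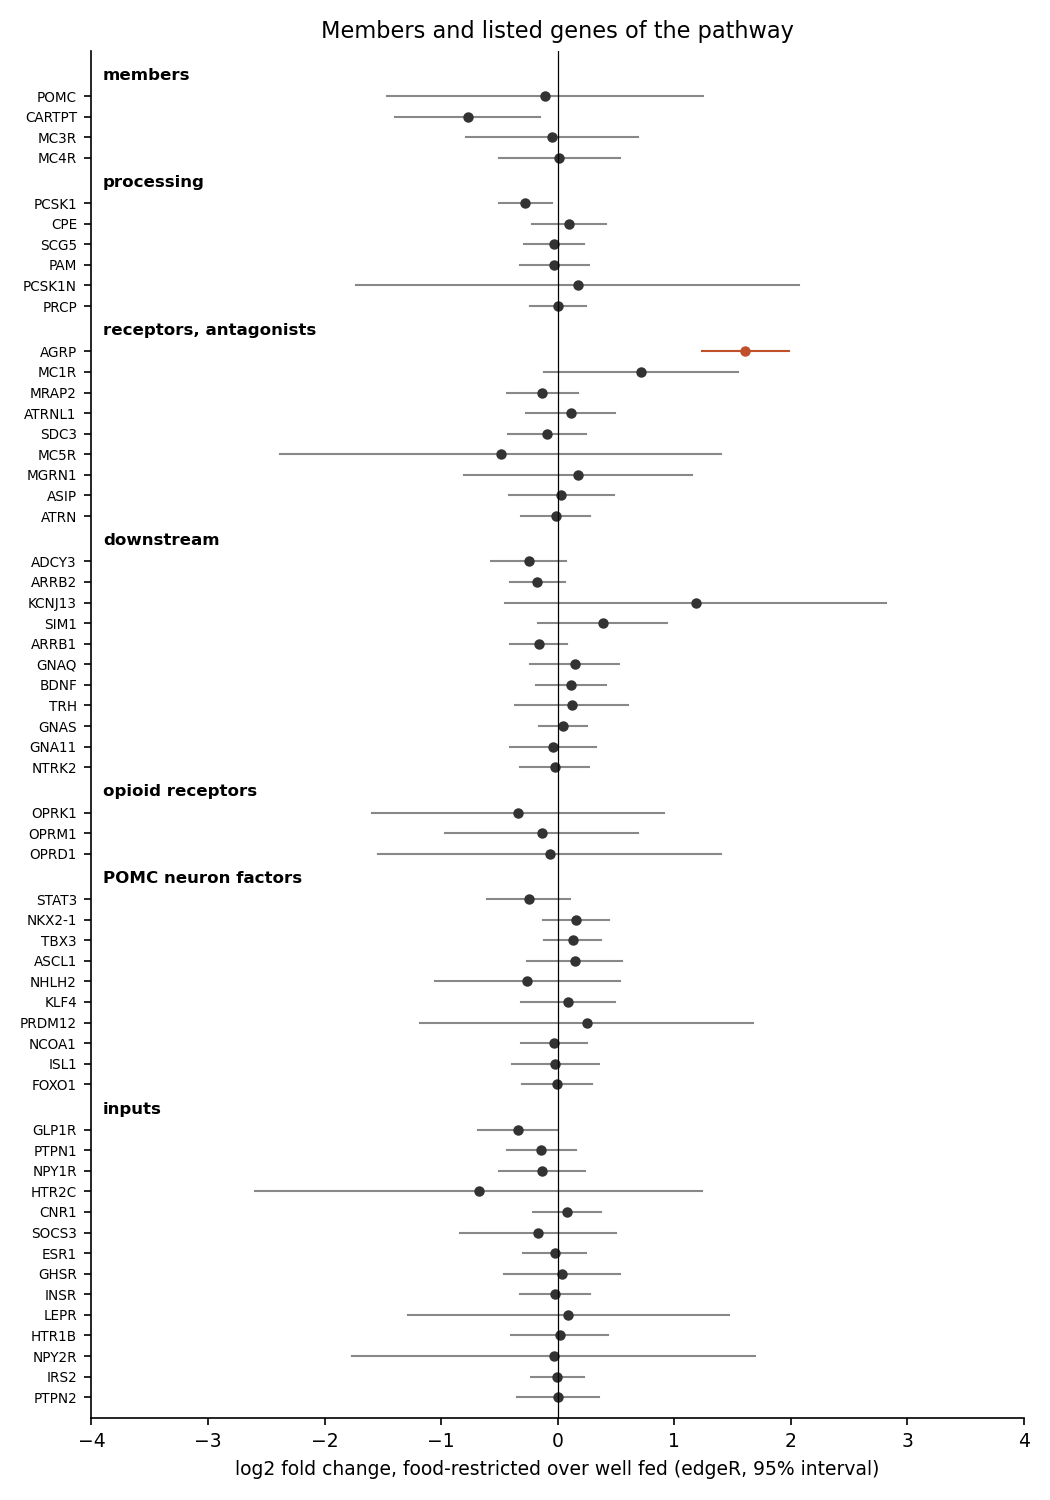
Log2 fold change of food-restricted over well-fed pools (edgeR) with its 95% interval for the 4 members and the 53 tested genes of the 6 lists. AGRP, in orange at 1.61, is the gene that passed over all genes, and the interval of POMC, between -1.46 and 1.25, is among the wider ones.

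POMC is also made by corticotroph and melanotroph cells of the pituitary, and CARTPT outside the arcuate nucleus, so markers of those cells were read beside them. TBX19, the factor that defines both pituitary cell types, was at 1.35 ± 0.419 CPM in food-restricted and 1.28 ± 0.440 CPM in well-fed pools (SD, n = 4 each), PAX7, which marks melanotrophs, was at 0.301 ± 0.0663 CPM in food-restricted and 0.506 ± 0.246 CPM in well-fed pools, and AVPR1B had 0 reads in all pools. TBX19 averaged 1.19 CPM in the 4 pools with positive scores on that component and 1.45 CPM in those below 0, so it did not rise with POMC. PITX1, a factor of pituitary cells in general, did go with POMC, at 84.2 to 117 CPM above 0 and 18.5 to 43.0 CPM below 0. The 6 markers of the list summed to 145 to 273 CPM in food-restricted pools, against 121 to 278 CPM in well-fed ones, 5 of 6 were detected, and their part in the POMC level was not tested. The markers of other pituitary cells differed among themselves. LHB, a luteinizing hormone subunit, was at 50.5 to 117 CPM above 0 and 8.55 to 33.1 CPM below 0, without overlap, and its part in the POMC level was not tested. FSHB, a follicle-stimulating hormone subunit, averaged 26.7 CPM above 0 and 19.3 CPM below 0 with overlap. CGA, the subunit that pituitary glycoprotein hormones share, averaged 1153 CPM above 0 and 1199 CPM below 0, TSHB, a thyrotropin subunit, 11.4 CPM above 0 and 11.6 CPM below 0, and PRL, prolactin, 66.0 CPM above 0 and 98.2 CPM below 0. PMCH, the melanin-concentrating hormone gene, averaged 232 CPM above 0 and 335 CPM below 0. It thus did not go with CARTPT across the sides. Other markers of the lateral hypothalamic list differed: HCRT averaged 24.9 CPM above 0 and 7.26 CPM below 0, without overlap. LHX9 averaged 0.747 CPM above 0 and 0.734 CPM below 0. Their part in the CARTPT level was not tested.

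Of all tested genes, 14.2% were higher above 0 without overlap, among them genes of several kinds. AVP (vasopressin) was at 127 to 236 CPM above 0 and 26.4 to 72.2 CPM below 0, and OXT (oxytocin) at 15.0 to 52.7 CPM above 0 and 0.857 to 6.02 CPM below 0. PCSK1N, the precursor of an inhibitor of PCSK1, was at 338 to 457 CPM above 0 and 27.3 to 108 CPM below 0. CLDN5, an endothelial junction protein, averaged 17.1 CPM above 0 and 3.41 CPM below 0, and MBP, a myelin protein of oligodendrocytes, 2292 CPM above 0 and 1219 CPM below 0. PCSK1, CPE, PAM and SCG5, which process neuropeptides, were not higher above 0 (ratios between 0.812 and 0.936). The markers of neurons in general differed among themselves. SNAP25, a synaptic protein, averaged 571 CPM above 0 and 633 CPM below 0. SYT1 (281 and 313 CPM) and STMN2 (800 and 921 CPM) were also lower above 0 on average. SYN1 (395 and 355 CPM) and RBFOX3 (38.2 and 30.5 CPM) were higher above 0 without overlap. The 9 arcuate markers, AGRP among them, summed to 592 to 753 CPM in food-restricted pools, against 381 to 578 CPM in well-fed ones, with none at 0 in all pools. Across the sides these markers differed. TH averaged 34.8 CPM above 0 and 11.1 CPM below 0, and SLC6A3 3.39 and 1.45 CPM, both without overlap. NPY (130 and 71.2 CPM), KISS1, GHRH, AGRP and TAC3 were higher above 0 on average, with overlap over the 8 pools. ISL1 (49.5 and 62.9 CPM) and TBX3 (131 and 137 CPM) were lower above 0 on average. Whether the pools differed in the tissue taken was not tested. PITX1, LHB, AVP, OXT, PCSK1N, CLDN5 and MBP were picked here after their values were seen.

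**Figure D5:**
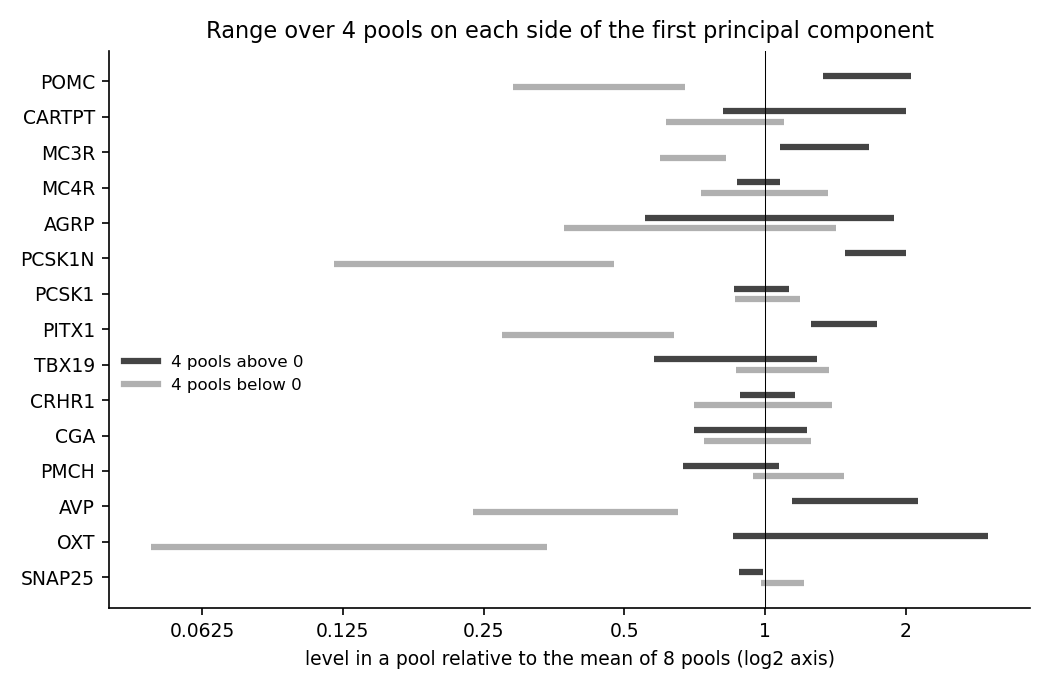
Range over the 4 pools above 0 (dark) and the 4 pools below 0 (grey) on PC1, as the level relative to the mean of the 8 pools on a log2 axis. POMC, MC3R, PCSK1N, PITX1, AVP and OXT have ranges that do not meet, while CARTPT, MC4R, AGRP, PCSK1, TBX19, CRHR1, CGA, PMCH and SNAP25 overlap.

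The genes most like each member were ranked by the Pearson r of log2 CPM over the 8 pools after the group means were removed, among 12013 genes. With so many genes and 8 pools that fall into clusters, high values are to be met without any special relation, and they are given as a ranking. For POMC the first 5 were RCN3, LENG1, FDX2, MVB12A and PDLIM7, with r between 0.995 and 0.998, none of them a neuropeptide. CARTPT stood at rank 1697 for POMC and POMC at rank 308 for CARTPT, so many genes followed each of them more closely than they followed each other. For CARTPT the first 5 were SERF2, WDR83OS, PCP4, RPL28 and TMEM256 (r between 0.982 and 0.987). For MC3R they were RFTN1, CHTOP, TXNRD3, ATP11A and GSE1 (r between 0.954 and 0.967), with POMC at rank 1396. For MC4R they were SPAG1, RND3, ARGLU1, TOB2 and SPAG6 (r between 0.932 and 0.949), with POMC at rank 8029.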

How the data were processed

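The authors deposited a table of unnormalized read counts, with a column for each pool. Per the labels' protocols, libraries were made with the TruSeq stranded mRNA kit from TriReagent RNA. The submitters' processing notes name featureCounts 2.0.0, SAMtools 1.9, Bowtie2 2.3.5.1, TopHat2 2.1.1, FastQC and bcl2fastq 2.20, without their roles. No label or header states the genome build, annotation or strand setting, so overlapping or duplicated genes are uncertain and no coordinates are printed. Column names were read as RES for food-restricted and AL for ad lib, the series' term for the well-fed ewes.

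Total counts were 41261774 to 42964514 in food-restricted and 36192025 to 48125991 in well-fed pools. Between pools of a group, chi-square divided by its degrees of freedom was 25.0 to 169, more than counting error gives. Whether pools share ewes is not stated, so p-values measure only the spread between these pools.

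In R 4.3.3, edgeR 4.0.16 (filterByExpr with minimum count 10 and total 15, TMM, glmQLFit, glmQLFTest, no covariate) compared the groups over 18193 genes, with Benjamini-Hochberg adjustment. A positive log2 fold change means higher in food-restricted pools, and its SE was derived from the F statistic. Log2 CPM used a prior count of 2. Permutation tests enumerate all 70 splits. DESeq2 1.42.0 and limma 3.58.1 were alternatives. Simulated counts with known fold changes were used to check the gene test. Figures used Python 3.11.15 and matplotlib 3.10.9.

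The members, lists and tests were chosen with earlier results of these data known. Named were the members, AGRP, the 3 genes of smallest p and any called gene of each pathway list, and for each member the 5 genes of highest r with a symbol and at least 5 CPM. Genes outside that rule illustrate a list or are said to be picked later. Marker lists gave 0 calls apart from AGRP, among 13 cell lists.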

Additional observations from a re-analysis of the deposited data

Results flagged for a closer look

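Of 18 sets of 4 pools checked for a sample apart from the rest (5 genes and 4 ratios in each group), 1 stood out, where chance flags about 1 in 20 groups. In food-restricted ewes AGRP was at 193 CPM in pool 1 against 137, 146 and 144 CPM in the others, so the gap to the nearest pool was 0.843 of the whole range, above the 95% critical value of Dixon's test for 4 samples. Without that pool the AGRP log2 fold change was 1.49 (edgeR adjusted p = 0.147).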

How the results depend on the processing

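Over 19 alternatives none of the 4 members was called. CARTPT kept its negative direction in all 19, with log2 fold changes between -0.98 and -0.46 and edgeR, DESeq2 or limma adjusted p between 0.483 and 1. The sign of POMC turned with the replicate block (0.093), a block for the side of the first principal component (0.11), limma voom (0.096) and only the 4 pools below 0 (0.49). That of MC3R turned with the replicate block (0.046), the side block (0.018), limma voom (0.022) and the pools below 0 (0.28), and that of MC4R with only the 4 pools above 0 (-0.13). With 1 pool left out, the values ran between -0.42 and 0.46 for POMC, -0.23 and 0.32 for MC3R, -0.17 and 0.15 for MC4R, and -0.28 and 0.32 for the log2 ratio of MC4R to MC3R. The AGRP to CARTPT difference stayed between 2.11 and 2.45, AGRP to POMC between 1.11 and 1.89, and CARTPT to POMC between -1.14 and -0.51. None of the 4 ratios passed after adjustment under any alternative, which sign flips over 4 pairs (smallest p 0.125) or permutation within sides (smallest p 0.0556) could not have allowed. In the other settings the smallest permutation p was 0.0286. A single ratio at that floor has an adjusted p of 0.114 over 4 ratios, so it could not have passed alone.

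The 1 gene called higher became 0 with the replicate block, 0 without any 1 pool (0 to 0) and 0 with only the pools above 0. It became 2 with the side as a block (AGRP and NPY) and 6 with only the pools below 0. The 0 called lower became 4 with the side as a block and 3 with DESeq2. The cause was not tested. At an unadjusted p under 0.05 edgeR gave 309 genes in all. The replicate numbers do not pair the samples: same-numbered pools correlated between -0.42 and -0.21, and 0 of 4 correlated best with their own number. The 2 single-side fits were chosen after seeing the data. The alternatives listed for a correlation of POMC with CARTPT were not run, as POMC falls into clusters of 4 pools and no correlation was tested. For all 4 members the spread between pools exceeded the counting error, which was largest for MC3R and MC4R.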
